A study of Mus musculus with 6 samples.

Results

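The lysyl oxidase family comprises Lox, Loxl1, Loxl2, Loxl3 and Loxl4, copper-dependent amine oxidases that convert lysine side chains of collagens and elastin to aldehydes, from which the covalent cross-links of the extracellular matrix form. The 5 genes were read by 10 of the 55681 probes on the array, found through the accession that each probe carries, out of 20018 genes that could be named. Lox and Loxl1 are secreted as pro-enzymes and are best known for collagen and elastic fibres. Loxl2, Loxl3 and Loxl4 carry scavenger receptor cysteine-rich domains before the catalytic domain, and Loxl2 is known to be made by endothelial cells and to act on the collagen IV of vessel basement membranes. Several members are known to be induced by hypoxia and by TGF-β.

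RNA came from endothelial cells of embryonic mouse skin isolated by fluorescence-activated sorting. The series holds 3 APJ knockout samples, in which the gene Aplnr for the apelin receptor is targeted, and 3 wild-type samples, all labelled with the strain C57Bl/6J and each described as coming from 1 numbered mouse. The embryonic stage is taken from the names of the scanner files. All 6 names carry the same day of mid-gestation, so the genotypes do not differ in stated age, and the labels do not repeat it. The labels state that nothing was done to the cells after the sort, and give neither the kind of APJ allele, nor the sex of the animals, nor the surface markers used. Each sample was hybridised to a one-colour Agilent array. A level is the log2 signal of a probe minus the array's 75th percentile, so 0 is the signal of that percentile, and a difference is always APJ knockout minus wild type. "Well above background" is the scanner software's own call for a spot. Errors and p-values describe how far these 6 samples spread, and precision is limited by having few arrays.

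The arrays had 75th percentiles of 260.5 to 399.7 intensity units in knockout and 251.8 to 377.6 in wild type, and no spot was saturated. Aplnr checked the labels: it read 1.71 to 2.26 on the knockout arrays and 3.35 to 3.82 on the wild-type arrays, a fall to 30.9% (limma adjusted p = 0.0237). Blocking on replicate number gave an adjusted p of 0.0791 by limma. Its probe may lie outside the deleted part, so it checks the labels only in part. Defining endothelial genes were abundant in both genotypes, the summed signal of 12 pan-endothelial markers being 956 to 1036 times the 75th percentile in knockout and 921 to 1013 times in wild type. Replicates 1 and 2 of both genotypes shared 1 slide and scan, and replicate 3 of both shared another.

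The members were chosen by gene family, and the family was taken up because Loxl4 was past the threshold in a fit of this same contrast across all features (limma adjusted p = 0.0206). Blocking on replicate number, which left 0.0165% of features called higher and 0.00413% lower, gave Loxl4 an adjusted p of 0.075 by limma. The differences of the 5 genes are therefore given as a description, without a test. Loxl4 was the only member past the threshold, as 1 of the 3 genes of the family that were tested. Over everything tested 0.367% of 24235 features were called higher and 0.186% lower, and nothing is read from the family's count. With 1 array left out at a time, Loxl4 stayed past the threshold in 1 of 6 fits, the one without wild type replicate 3 (limma adjusted p = 0.0056), and had 0.0708 to 0.106 in the others. It was also lost with no filter on dim probes and with normexp background correction (limma adjusted p = 0.168 and 0.113).

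Of the family's start sites, that of Loxl4 had a sequence in the promoter table, and it is shown because Loxl4 carries the largest difference of the family. The 300 bases run from 250 before to 50 after the start of the gene, at chr19:42612757-42613056 on the minus strand (RefSeq, GRCm38.p6), and capitals mark matches to 3 motifs described after it.

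Loxl4 promoter: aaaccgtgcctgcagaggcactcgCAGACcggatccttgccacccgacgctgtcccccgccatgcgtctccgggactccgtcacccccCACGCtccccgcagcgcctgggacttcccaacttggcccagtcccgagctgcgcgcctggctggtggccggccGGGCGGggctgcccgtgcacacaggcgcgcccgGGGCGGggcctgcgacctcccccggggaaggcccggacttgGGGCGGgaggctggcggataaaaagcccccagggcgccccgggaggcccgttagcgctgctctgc

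One motif was the core of the hypoxia response element, ACGTG or GCGTG on either strand. It occurred once, as GCGTG read on the other strand, at position -162, and 43.8% of 32851 promoter windows of this length held at least 1 match. The second was CAGAC, a short Smad-binding element, which occurred once, at position -226, and was in 49.6% of windows on either strand. The third was the GC box CCGCCC, which occurred 3 times on the other strand and was in 35.7% of windows. No match overlapped another. The window was 75% G and C with 32 CpG pairs, against medians of 52.7% and 7 over all windows, and 90.5% of windows had fewer CpG pairs. A match describes these letters only.

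Loxl4, which cross-links collagen, was dim, and cleared the background call on every knockout array but on no wild-type array. Its probe A_66_P107231 gave intensities of 39.3, 35.0 and 59.3 in knockout replicates 1 to 3, each well above background, and 4.79, 3.08 and 11.1 in wild type replicates 1 to 3, none of them well above background. The software's own error of these intensities was 11.0% to 12.9% in knockout. In wild type replicates 1 to 3 it was 57.3%, 100.3% and 25.9%. Wild type replicates 1 and 2 were therefore poorly resolved from zero, while replicate 3 was better resolved. As levels, the probe read -2.96, -2.90 and -2.75 in knockout and -5.91, -6.35 and -5.09 in wild type. The knockout arrays lay close together and every one of them was above every wild-type array, by at least 2.13 on the log2 scale.

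The group means were -2.87 ± 0.11 in knockout and -5.79 ± 0.64 in wild type (SD, n = 3 each), a difference of 2.91 ± 0.30 (SE of the fit). Because no wild-type array cleared the well-above-background call for Loxl4, the ratio is at best a rough lower bound. It came to 7.51-fold higher in knockout, close to the 7.54-fold given by the group means. For this bound each wild-type array counted at its dimmest well-above-background signal, or at the Loxl4 signal where that was brighter. Those dimmest signals had levels of -6.80, -6.34 and -7.26 in wild type replicates 1 to 3. They lay below the Loxl4 signal in replicates 1 and 3 and next to it in replicate 2. The bound therefore had to come out near the ratio of the means, and nothing is read from their closeness. That bound leaves out the spread between arrays and the software's error of the wild-type spots, so the true ratio could be lower. Within slide 1, with 2 arrays of each genotype, the difference was 3.20, and within slide 2, with 1 of each, it was 2.34.

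The other Loxl4 probe, A_55_P2044143, separated the genotypes in the same way. Its intensities were 33.9, 24.9 and 31.3 in knockout and 2.46, 2.82 and 5.28 in wild type, again with all knockout arrays and no wild-type array well above background. It averaged -3.41 ± 0.25 in knockout and -6.51 ± 0.36 in wild type (SD, n = 3 each), 8.10-fold higher by the same rough bound. Over the 6 arrays the 2 probes correlated at r = 0.97, a description in which they share the arrays and the genotypes. Of all 55681 probes, 40 (0.0718%) were well above background on 3 knockout and 0 wild-type arrays, and 16 (0.0287%) the other way round, and both Loxl4 probes are among the 40.

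**Figure D1:**
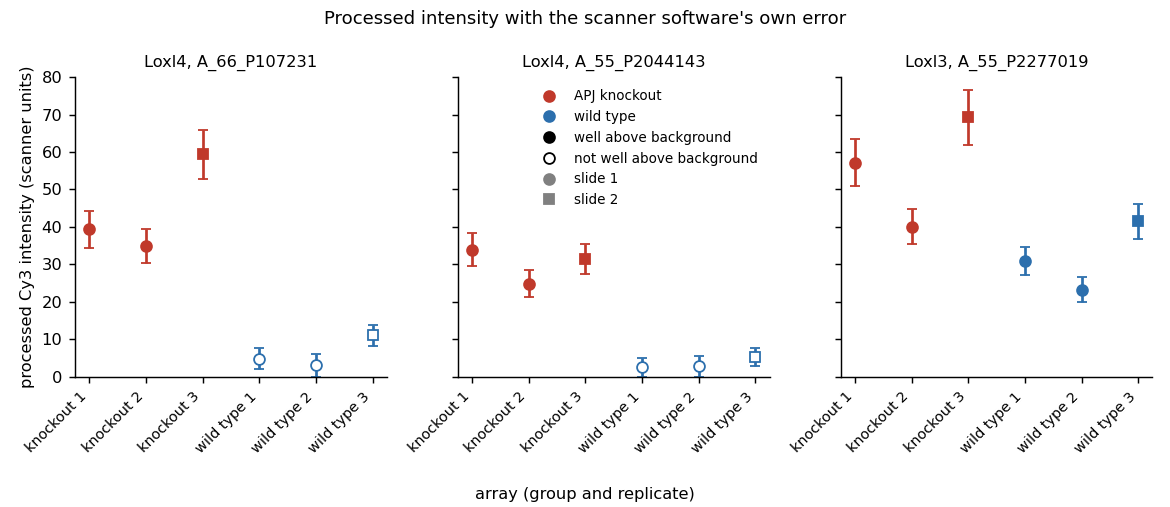
Processed Cy3 intensity in scanner units (vertical axis) on each array for both Loxl4 probes and the Loxl3 probe, with bars for the scanner software's own error of each spot. Filled symbols are well above background, open ones are not, and circles and squares are slides 1 and 2. The knockout arrays read 34.96 to 59.35 and 24.86 to 33.89 for Loxl4, above all wild-type arrays, and for Loxl3 the ranges were 40.04 to 69.22 in knockout and 23.26 to 41.48 in wild type.

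Loxl3, a family member needed for collagen assembly in the palate and spine of the mouse, was weakly expressed in both genotypes and read by 1 probe, A_55_P2277019. Its levels were -2.43, -2.70 and -2.53 in knockout and -3.22, -3.44 and -3.19 in wild type, all 6 arrays being well above background. The genotypes did not overlap on this scale, with 0.48 between the lowest knockout and the highest wild-type array. Raw intensities did overlap, since both arrays of slide 2 had a higher 75th percentile than those of slide 1: knockout replicate 2 read 40.0, just below the 41.5 of wild type replicate 3. Loxl3 averaged -2.55 ± 0.14 in knockout and -3.28 ± 0.13 in wild type (SD, n = 3 each), a difference of 0.73 ± 0.12 (SE) or 1.66-fold, with 0.77 within slide 1 and 0.66 within slide 2.

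Loxl2, the member best known from endothelium, gave the brightest spots of the family, with 3 probes well above background on all 6 arrays, as were 48.3% of all probes. Probe A_52_P480351, which represents the gene in the fit, read 3.55, 3.06 and 3.39 in knockout and 3.11, 3.05 and 2.95 in wild type. The genotypes overlapped on it, since knockout replicate 2 lay below wild type replicate 1. It averaged 3.34 ± 0.25 in knockout and 3.04 ± 0.08 in wild type (SD, n = 3 each), a difference of 0.30 ± 0.14 (SE) or 1.23-fold.

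The remaining Loxl2 probes did separate the genotypes, by small gaps. A_55_P2131348 read 1.99, 2.15 and 2.32 in knockout and 1.80, 1.81 and 1.92 in wild type, a difference of 0.31 ± 0.11. A_51_P275949 read 1.28, 1.26 and 1.68 in knockout and 0.75, 0.95 and 1.16 in wild type, a difference of 0.45 ± 0.16. The gaps between the lowest knockout and the highest wild-type array were 0.07 and 0.10. These 2 probes correlated at r = 0.93 over the 6 arrays, but at 0.44 and 0.54 with A_52_P480351, so the 3 probes share the sign of the difference and not the order of the arrays. Among everything tested, 6.37% had every knockout array above every wild-type array and 5.86% every one below.

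Lox, the founding member of the family, cleared the background call on 0 of 6 arrays with either of its 2 probes. Their intensities were 2.18 to 2.71 in knockout and 2.14 to 2.73 in wild type, with a software error of 100.3% to 100.6%. A signal of this size is indistinguishable from background. Of all probes, 38% cleared the background call on 0 of 6 arrays.

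Loxl1, which acts on elastic fibres, likewise cleared the background call on 0 of 6 arrays, so no direction is read from its 2 probes. A_51_P304239 read -6.46, -6.39 and -7.09 in knockout and -6.13, -5.49 and -5.07 in wild type, every knockout array below every wild-type array. A_55_P2096226 read -4.68, -5.46 and -5.52 in knockout and -6.07, -5.79 and -5.11 in wild type, with the genotypes overlapping. The 2 probes correlated at r = -0.02 over the arrays. For A_51_P304239 the software error was 96.9% to 100.4% in knockout and 27.5% to 73.2% in wild type. For A_55_P2096226 it was 24.6% to 43.1% in knockout and 23.46% to 60.35% in wild type. Some Loxl1 spots were thus better resolved from zero than those of Lox. No ratio is given for Lox or Loxl1, and neither entered the fit.

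**Figure D2:**
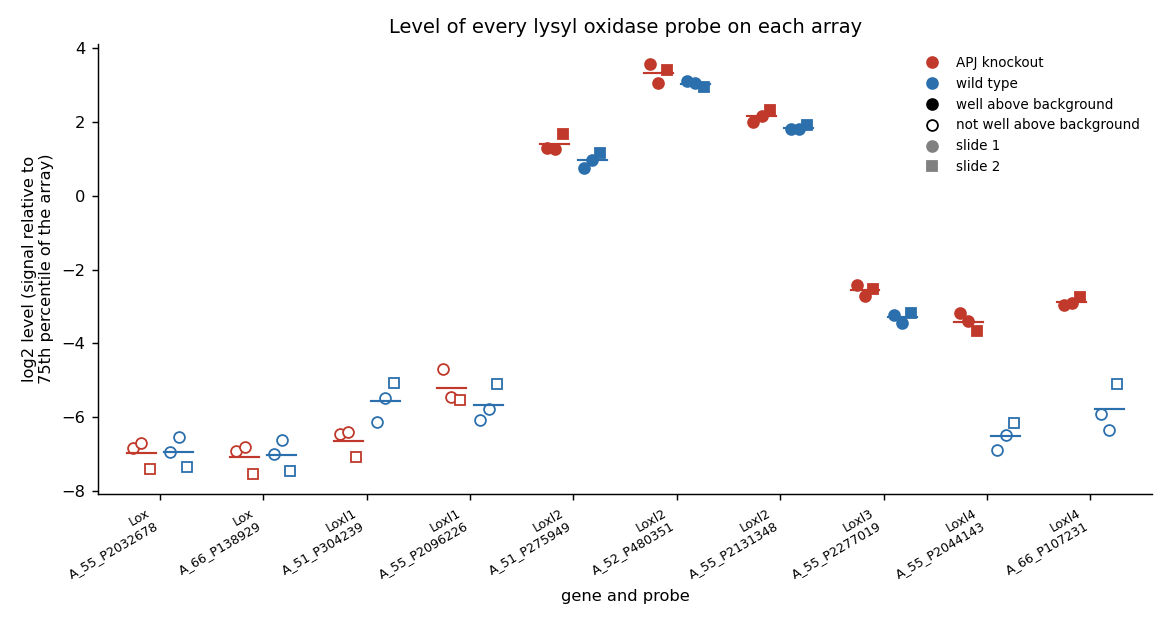
Level (log2 signal relative to the array's 75th percentile) of each of the 10 lysyl oxidase probes on every array, knockout left of wild type, with lines at the group means of 3 arrays. Open symbols are not well above background. The 3 Loxl2 probes lie above 0, Loxl3 between -3.44 and -2.43, Lox and Loxl1 are open throughout, and Loxl4 is filled in knockout and open in wild type.

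The 3 named genes whose level followed each tested member most closely over the 6 arrays were taken from 13456 others by Pearson's correlation, with no test. For Loxl4 they were Ipo9, a nuclear import receptor (r = 0.996), the kinase gene Nek3 (0.99) and Lgals3bp, a secreted galectin-binding glycoprotein (0.989). Ipo9 read 2.28, 2.34 and 2.40 in knockout and 1.46, 1.43 and 1.68 in wild type. Its difference of 0.82 ± 0.10 and that of Nek3, 0.76 ± 0.09, passed over all features (SE, limma adjusted p = 0.0333 and 0.0294). Neither passed when replicate number was a block (limma adjusted p = 0.075 and 0.074), and both were lost with any 1 array left out. Loxl4 itself separated the genotypes, so genes picked for following it tend to separate them too, and nothing further is read from their calls. Lgals3bp differed by 0.22 ± 0.08, far less than Loxl4 (limma adjusted p = 0.505). For Loxl3 they were Ddx11, a DNA helicase, Aig1, and Gap43, a growth-associated protein of neurites (r = 0.9997, 0.9956 and 0.995), and for Loxl2 Setd3, a histidine methyltransferase, Tbc1d2 and Sspo (r = 0.968 to 0.976). Between 0.29% (Loxl2) and 2.1% (Loxl4) of named genes had r above 0.9 over these 6 arrays.

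The 5 tested named genes nearest on each side of every member, in the order of the RefSeq gene table, showed whether a member moved with its surroundings on the chromosome. Of the 10 around Loxl4 on chromosome 19, 0 were called (limma, with 1 at an unadjusted p under 0.05), and their differences ran from -0.17 to 0.35 with a median of 0.09. Its nearest tested neighbours R3hcc1l and Pyroxd2 differed by 0.08 and 0.01. Around Loxl3 on chromosome 6, 0 of 10 were called (1 at an unadjusted p under 0.05), and the nearest, Dok1 and the mitochondrial protease gene Htra2, differed by 0.01 and 0.06. Around Loxl2 on chromosome 14, 1 of 10 was called, its nearest tested neighbour Entpd4, a nucleotide phosphatase of the Golgi. Entpd4 averaged 3.65 ± 0.14 in knockout and 2.91 ± 0.06 in wild type (SD, n = 3 each), a difference of 0.75 (limma adjusted p = 0.0437). It was lost when replicate number was a block (limma adjusted p = 0.095) and with any 1 array left out (0.0615 to 0.193). The gene table also holds a similarly named Entpd4b on that chromosome, which the probe may not tell from Entpd4. Around Lox on chromosome 18 and Loxl1 on chromosome 9, 0 of 10 were called at either member, and 0 had an unadjusted p under 0.05. The genes nearest to Lox were Srfbp1 (-0.01) and Sncaip (-0.09), and those nearest to Loxl1 were Stoml1 (-0.05) and Tbc1d21 (-0.09).

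**Figure D3:**
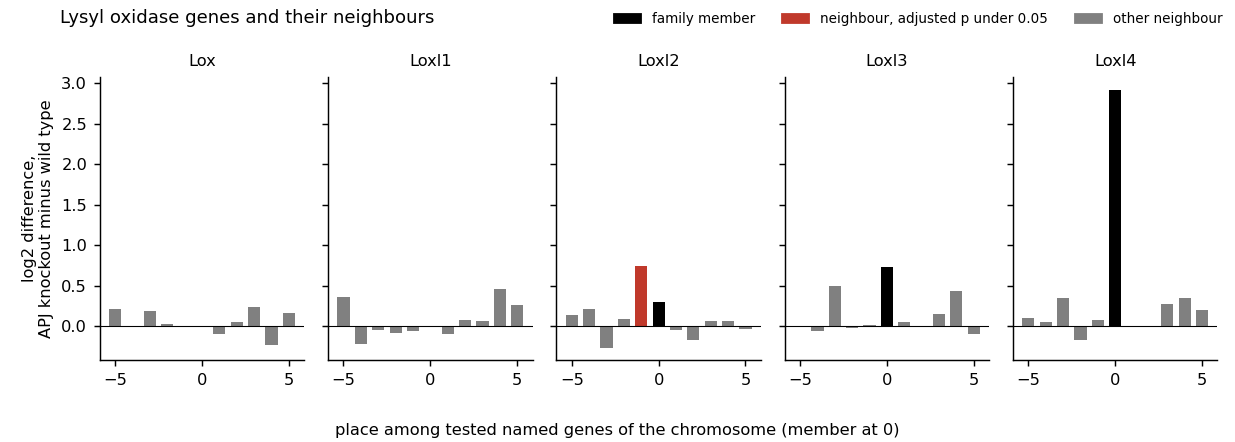
Log2 difference, APJ knockout minus wild type (vertical axis), of each tested lysyl oxidase gene (black) and of the 5 nearest tested named genes on each side, by their place on the chromosome (horizontal axis). Lox and Loxl1 have no bar of their own because they were not tested. The neighbours of Loxl4 lie between -0.17 and 0.35, and Entpd4 beside Loxl2 is the 1 called neighbour.

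Genes of the cross-linking pathway were grouped in 10 lists, from substrates to inducers, with 92 tested genes of 102 listed. Of these 1 rose, Tgfbi, and 0 fell (limma, with 32 higher and 2 lower at an unadjusted p under 0.05). That is 1.09% higher, against 0.367% of all features. Counted by overlap alone, 35 lay above wild type on every knockout array (38%), Tgfbi among them, and 5 below (5.43%), against 6.37% and 5.86% of all features, and most of the higher ones belonged to the inducer lists. The median difference of the 92 was 0.09, against -0.02 over all features. The lists were chosen with earlier results of these data known.

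Tgfbi, which encodes an extracellular matrix protein under TGF-β control, averaged 3.42 ± 0.10 in knockout and 2.62 ± 0.04 in wild type (SD, n = 3 each). Its difference was 0.80 ± 0.09 (SE, limma adjusted p = 0.0237), and blocking on replicate number gave an adjusted p of 0.074. It was lost with any 1 array left out (0.0691 to 0.14). Of the 11 TGF-β ligands and induced genes, 10 were above 0, 8 of them without overlap of the genotypes, against 6.37% of all features, with a median of 0.39. Among those not past the threshold, Tgfb3, a ligand of the pathway, differed by 0.50 and Smad6, an inhibitory Smad, also by 0.50 (limma adjusted p = 0.0805 and 0.245). Tgfb3 passed when slide was a block (limma adjusted p = 0.0467) but not when replicate number was (0.106).

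Hypoxia-induced genes had the same median, 0.39. Of 14 tested, 13 were above 0 and 12 were above wild type without overlap, against 6.37% of all features, while 0 passed (limma, with 11 higher at an unadjusted p under 0.05). The vasodilator peptide gene Adm differed by 1.12 ± 0.17, while Pfkfb3 and Pfkfb4, which control flux through glycolysis, differed by 0.44 and 0.48 (limma adjusted p = 0.0586, 0.164 and 0.173). Blocking on slide, which left 0.759% of features called higher and 0.417% lower, Adm passed (limma adjusted p = 0.0232). With replicate number as a block it did not (limma adjusted p = 0.0919).

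Genes that process, load or hold lysyl oxidases gave 0 calls of 9 tested (limma, with 2 higher at an unadjusted p under 0.05) and a median of 0.05. Fn1, which encodes fibronectin, a scaffold on which Lox is activated, averaged 6.82 ± 0.13 in knockout and 6.13 ± 0.12 in wild type (SD, n = 3 each), a difference of 0.69 that did not pass (limma adjusted p = 0.0686). The matricellular gene Thbs1 differed by 0.66 and Pcolce, an enhancer of procollagen processing, by -0.20 (limma adjusted p = 0.155 and 0.993). Blocking on slide, which raised the share of all features called higher to 0.759%, Fn1 and Thbs1 passed (limma adjusted p = 0.0196 and 0.0353). Neither passed when replicate number was a block (limma adjusted p = 0.074 and 0.098).

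Substrates of the family stayed near the median of all features. Of 16 elastic fibre genes 11 were above 0, with a median of 0.08 and 0 calls (limma, 3 higher and 1 lower at an unadjusted p under 0.05). Ltbp1, which anchors latent TGF-β, differed by -0.58, the fibrillin gene Fbn1 by 0.35 and Ltbp4 by 0.26 (limma adjusted p = 0.0847, 0.47 and 0.494). Of 9 fibrillar collagen genes 4 were above 0, with a median of -0.04 and 0 calls (limma, 1 higher at an unadjusted p under 0.05). Col2a1, the cartilage collagen, had the widest difference of the list and was highest in knockout replicate 3. It read -0.02, -0.63 and 2.24 in knockout and -2.06, -1.35 and -2.50 in wild type (difference 2.50 ± 0.74, limma adjusted p = 0.339), with 1.38 within slide 1 and 4.74 within slide 2. Col27a1 and Col5a2 differed by 0.28 and -0.17. Of 5 collagen IV chains 3 were above 0, with a median of 0.05 and 0 calls (limma, 1 higher at an unadjusted p under 0.05), and the abundant chain Col4a2 read 6.78 ± 0.08 in knockout and 6.71 ± 0.06 in wild type (SD, n = 3 each). Col4a5 differed by 0.34 and Col4a4 by -0.45, the last with 1 knockout array not well above background.

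Enzymes that modify collagen before secretion had a median of 0.10, with 12 of 17 above 0 and 0 calls (limma, 5 higher at an unadjusted p under 0.05). P4ha2, a prolyl hydroxylase, differed by 0.68 ± 0.13, and the lysyl hydroxylases Plod3 and Plod2, whose products lysyl oxidases can use, by 0.24 and 0.31 (limma adjusted p = 0.124, 0.418 and 0.479). Among 4 other cross-linking enzymes 0 passed (limma, 1 higher at an unadjusted p under 0.05). F13a1, a transglutaminase of clotting and of macrophages, differed by 1.96 ± 0.50, and the further transglutaminase genes Tgm2 and Tgm3 by -0.09 and -0.04 (limma adjusted p = 0.238 for F13a1).

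Aoc3, an unrelated copper amine oxidase of the vessel wall also known as vascular adhesion protein, pointed the other way. It averaged -2.10 ± 0.28 in knockout and -1.03 ± 0.07 in wild type (SD, n = 3 each). The difference of -1.07 ± 0.15 missed the threshold (limma adjusted p = 0.0519). Aoc3 passed when slide was a block (limma adjusted p = 0.02) but not when replicate number was (0.0882). Its relative Aoc2 differed by 0.08, and of these 2 tested genes 0 passed (limma, 1 lower at an unadjusted p under 0.05). Of 5 tested genes in the list of epithelial-mesenchymal transition factors, which includes Cdh1, 2 were above 0 and 0 passed (limma, 1 higher at an unadjusted p under 0.05). Snai1, a repressor that Loxl2 is known to stabilise, differed by 0.52, Snai2 by -0.18 and Zeb2 by -0.12 (limma adjusted p = 0.469 for Snai1).

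**Figure D4:**
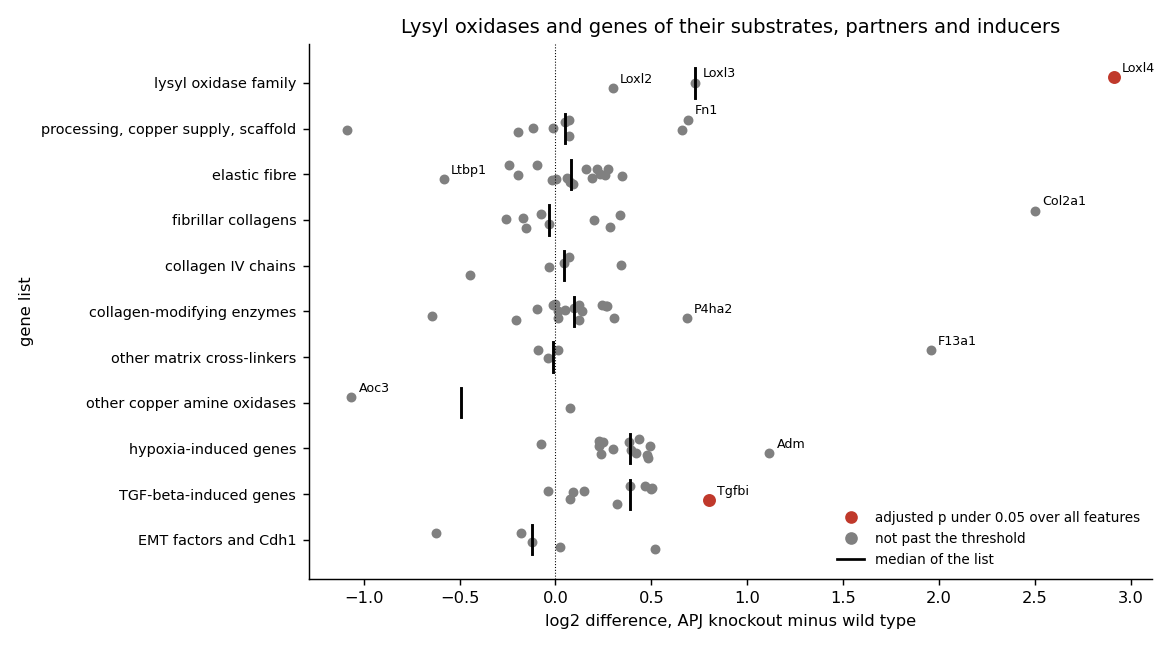
Log2 difference, APJ knockout minus wild type (horizontal axis), of each tested gene in the lysyl oxidase family and in 10 lists of its pathway (rows), with a bar at the median of all tested genes of the list; 1 TGF-β-induced gene is not drawn. Red points have a limma adjusted p under 0.05 over all features. Loxl4 at 2.91 and Tgfbi at 0.80 are red, and the hypoxia and TGF-β lists have medians of 0.39.

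Markers of other cells that a skin sort could hold were read beside these values, and their part in the Loxl4 difference was not tested. Of 8 tested macrophage markers 7 were above 0, with a median of 1.45, and 0 passed (limma, 6 higher at an unadjusted p under 0.05), while their summed signal, led by Csf1r and Mrc1, was 10.4 to 11.1 in knockout and 9.762 to 13.04 in wild type, in multiples of the 75th percentile. Lyz2, C1qa and C1qc, among the defining markers, were well above background on 3 knockout arrays and on 1, 2 and 2 wild-type arrays, with differences of 1.83, 1.79 and 1.91. They entered the test through the knockout arrays alone, as did Adgre1, which raises the median. Of the markers well above background on all 6 arrays, Aif1 differed by 1.11, C1qb by 0.48, Mrc1 by 0.06 and Csf1r by -0.23. Of 4 tested chondrocyte markers 3 were above 0 and 0 passed (limma, 2 higher at an unadjusted p under 0.05), with a summed signal of 1.17, 0.81 and 5.10 in knockout and 0.41, 0.56 and 0.38 in wild type. The sum, led by Col2a1, was higher on every knockout array than on any wild-type array. Of all features tested, 6.37% had every knockout array above every wild-type array. Acan differed by 0.73 without overlap of the genotypes, and Sox9 overlapped. Col9a1 differed by -0.52 and was well above background on 1 knockout and 3 wild-type arrays.

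All 8 lymphatic endothelial markers were above 0, with a median of 0.54, and 0 passed (limma, 7 higher at an unadjusted p under 0.05). Stab2 differed by 0.71, Flt4 by 0.38 and Mmrn1 by 0.48, and the summed signal was 575 to 648 in knockout and 531 to 622 in wild type. In sorted bulk cells, more cells of a type and more RNA per cell cannot be told apart. Of 9 tested fibroblast markers 4 were above 0, with a median of -0.04, and their summed signal was 5.40 to 10.4 in knockout and 5.90 to 8.17 in wild type. Among them Fbn1 differed by 0.35. Dcn, a proteoglycan of fibroblasts, read -2.12 ± 0.53 in knockout and -1.55 ± 0.55 in wild type (SD, n = 3 each). Twist2, well above background on 2 knockout and 3 wild-type arrays, differed by -0.51, and Dpt cleared the background call on 0 arrays. Mural cell markers had a median of -0.01 and a summed signal of 3.54 to 4.16 in knockout and 3.31 to 4.15 in wild type, with Abcc9 at 0.42, Notch3 at -0.84 and Pdgfrb at -0.58, and with Myh11 and Des not well above background on any array. Keratinocyte markers had a median of -1.30, with all 8 below 0. Their summed signal was 10.4 to 11.3 in knockout and 10.2, 16.5 and 34.9 in wild type replicates 1 to 3, so wild type was uneven. Sfn differed by -0.85, Krt14 by -1.31 and Krt10 by -1.05. Within slide 1 these differences were -0.50, -0.59 and -0.28, and within slide 2 they were -1.54, -2.755 and -2.59. Of 7 muscle genes 5 were not well above background on any array, and the 1 tested, Tnnt1, differed by -0.08. The pan-endothelial list had a median of 0.02, with Flt1 at 0.26, Eng at 0.27 and Erg at -0.13. In the fibroblast, mural, keratinocyte and pan-endothelial lists 0 passed over all features (limma, with 1, 1, 0 and 2 higher and 0, 1, 1 and 0 lower at an unadjusted p under 0.05).

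The size of the Loxl4 difference depended on how background was handled. With normexp correction and an offset of 50 added to signals that were themselves 3.08 to 59.3 it was 0.57, and that of Loxl3 was 0.29, while Loxl2, with far brighter spots, was at 0.30 under both. Under the other settings, left-out arrays and slides included, Loxl4 ran from 2.34 to 3.26, Loxl3 from 0.65 to 0.80 and Loxl2 from 0.19 to 0.44, all positive.

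**Figure D5:**
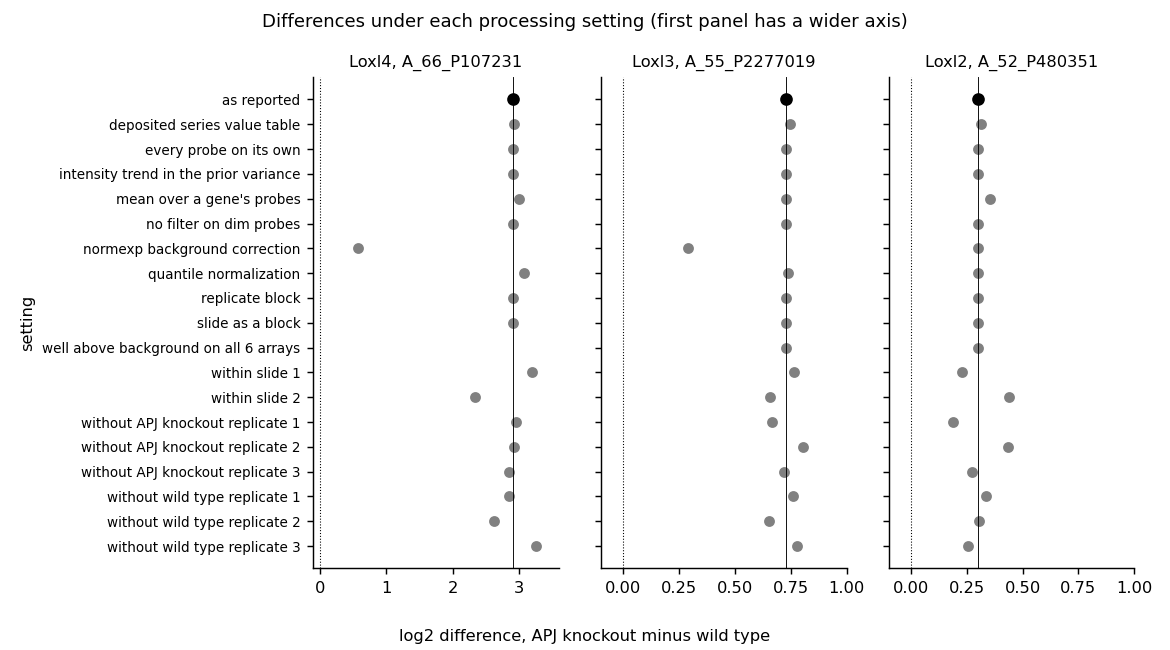
Log2 difference, APJ knockout minus wild type (horizontal axis), of Loxl4, Loxl3 and Loxl2 under every processing setting (rows), with a line at the reported value. Loxl4 drops to 0.57 and Loxl3 to 0.29 with normexp background correction, and no setting gives a difference below 0.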

How the data were processed

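Per the file headers, the authors' deposited scanner files hold fluorescence intensity on a linear scale from Agilent Feature Extraction 10.7.3.1, and the processed signal is background-subtracted, spatially detrended and not normalised between arrays. In the value table that the authors deposited, each array's intensity is multiplied by 1 constant (2.29 to 3.69). The software's other flags per spot (background call, saturation, outlier), per the file headers, were used as deposited. Intensities were taken to log2, the array's 75th percentile over 59305 non-control spots was subtracted, spots marked as outliers (126 to 179 per array) were left out, and spots of 1 probe were averaged. Symbols came from RefSeq accessions (GRCm38.p6), which named 97.7% of probes with curated accessions. The array's annotation is on mm9, so the only coordinates given are those of the promoter window, from RefSeq.

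A probe was tested if well above background on every array of at least 1 genotype, and a gene was represented by its brightest such probe. The fit used limma 3.58.1 under R 4.3.3 (lmFit, eBayes, genotype only), two-sided, Benjamini-Hochberg over 24235 features, threshold 0.05. Standard errors of further probes of a gene come from a fit of every probe that was well above background on every array of at least 1 genotype. The members, lists and tests were chosen with earlier results of these data known. Named genes were the members, called list genes, up to 3 further members of each list by unadjusted p, the 3 most alike genes and the nearest or called neighbours. Array values of the chondrocyte and keratinocyte sums, and further macrophage and chondrocyte markers, were singled out after being seen. Same-numbered arrays deviated together (r = 0.23, 0.15 and 0.65), so blocked values stand beside calls they change. However, knockout replicates 1 and 2 each correlated better with the other number (0.28 and 0.36). The 0.65 is that of replicate 3, whose arrays alone shared slide 2, so number and slide cannot be told apart there. The fit was tested on simulated data. One gene that this rule names is not reported here.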

Additional observations from a re-analysis of the deposited data

How the results depend on the processing

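Loxl4, Loxl3 and Loxl2 kept a positive difference under every setting tried. Loxl4 moved to 0.57 and Loxl3 to 0.29 with normexp (run on the median signal of each spot), by construction, since an offset of 50 is added to dim spots. Loxl4 was 2.34 within slide 2, where the cause was not tested. Leaving out 1 array gave 2.63 to 3.26 for Loxl4, 0.65 to 0.80 for Loxl3 and 0.19 to 0.44 for Loxl2. Requiring detection on all 6 arrays removes Loxl4 from the test, so no value exists there. Calls over all features, 89 higher and 45 lower, became 184 and 101 (slide block), 4 and 1 (replicate block), 3 and 0 with no filter (more features adjusted for, and 1049 lower at an unadjusted p under 0.05), 136 higher with every probe on its own, 69 lower with an intensity trend, and 11 to 45 higher and 2 to 27 lower without 1 array. Pathway lists, with 1 higher and 0 lower, gave 5 and 1 (slide block), 3 and 1 with an intensity trend, 3 higher with normexp, 1 lower with every probe on its own, and 0 higher with no filter, with the replicate block or without any 1 array (limma, 21, 33 and 19 to 27 higher at an unadjusted p under 0.05). Their lower count without 1 array was 0 to 0 (2 to 5 at an unadjusted p under 0.05). Arrays limit dim genes: Lox could not be told from background, and Loxl1 did not clear the background call on any array.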
